A study of Rattus norvegicus with 6 samples.

Results

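The miRNAs miR-320, miR-484 and miR-877 are known to be made without Drosha, the nuclease that releases most miRNA hairpins from their primary transcripts, and they were measured here in circulating exosomes of rats. The members were chosen by name as rno-miR-320-3p, rno-miR-320-5p, rno-miR-484 and rno-miR-877, and 3 of these 4 names carry a row among the 867 listed miRNA sequences. rno-miR-320-5p had no row of its own, so that arm was not analysed here. Exosomes were isolated from the serum of male Sprague-Dawley rats, aged 6 to 8 weeks and fed a normal diet. The 5 NXT-Exo libraries came from rats gavaged with Naoxintong Capsule (NXT), a traditional Chinese medicine, at 1000 mg/kg/d, and the 1 Ctl-Exo library used (replicate 5) from rats gavaged with saline at 5 mL/kg/d. The deposited table also has columns headed Ctl-Exo 1 to 4, which match no sample label given and were not used here, so each comparison with saline rests on a single library. The sample titles give 7 days of dosing, whereas the treatment field runs from 7 to 11 days over the 5 NXT-Exo libraries and names 11 days for the saline library. The labels name 10 rats per group, and whether a library is 1 rat or a pool is not given in the sources used here, so the spread between libraries may be partly technical.

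Most miRNAs are cut in succession, first by Drosha with its partner DGCR8 in the nucleus and then by Dicer in the cytoplasm. miR-320 skips the first cut because its hairpin is transcribed directly, with a cap on the 5′ end, and mainly its 3p strand is loaded into Argonaute. miR-484 is likewise independent of DGCR8 but needs Dicer. miR-877 is a mirtron, a short intron that is spliced out and folds into the hairpin itself, so its ends are set by the splice sites of its host gene.

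The 3 members have no seed in common. The listed sequences are shown because the seed (bases 2 to 8, in capitals) is the main part of a miRNA that pairs with its targets.
rno-miR-320-3p: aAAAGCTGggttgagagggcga
rno-miR-484: tCAGGCTCagtcccctcccgat
rno-miR-877: gTAGAGGAgatggcgcaggg
The listed sequences of rno-miR-484 and rno-miR-877 equal the RefSeq mature sequences (GRCr8), and rno-miR-320-3p was read from the deposited table alone. GC content was 54.5% for rno-miR-320-3p, 63.6% for rno-miR-484 and 65.0% for rno-miR-877, against a median of 50.0% over the 867 sequences, of which 127 were at least as GC-rich as rno-miR-484. rno-miR-877 begins with GT, as do 8 of the 427 rat-named sequences (1.87%).

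The table holds 5 further sequences that carry these miRNA numbers without the rat prefix, and they matter because reads of 1 miRNA arm are divided between them and the members. In 4 of them the bases in capitals are those past the stretch shared with the member, counted from the 5′ end, and in miR-877-y the capitals mark its own seed.
miR-320-y: aaaagctgggttgagagggcgaAT
miR-320-z: aaaagctgggttgagagggAAT
miR-484-z: tcaggctcagtcccctcccgaAT
miR-877-x: gtagaggagatggcgcaggAA
miR-877-y: tGTCCTCTtctccctcctccca
miR-320-y is rno-miR-320-3p with 2 bases added, and miR-320-z shares the first 19 bases. miR-484-z shares 21 bases with rno-miR-484 and then differs (T22A), and miR-877-x shares 19 bases with rno-miR-877 and then differs (G20A). The shared stretch covers the seed in all 4. Neither miR-484-z nor miR-877-x occurs whole in the RefSeq hairpin of its miRNA. The ending AAT of miR-320-y, miR-320-z and miR-484-z is found in 16 of the 311 sequences named without the rat prefix (5.14%) and in 1 of the 427 rat-named sequences (0.234%). Nearly the same sequences under separate names mean that the division of reads between them depends on the authors' matching, whose mismatch settings are not given in the sources used here.

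miR-877-y is the other arm of the miR-877 hairpin. The RefSeq hairpins (GRCr8) are shown with the sequences that were found whole in them in capitals.
Mir877, chr20:2816284-2816368, plus strand: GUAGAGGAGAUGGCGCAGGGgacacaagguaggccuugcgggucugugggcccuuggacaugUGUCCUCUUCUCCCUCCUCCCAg
Mir484, chr10:1394905-1394981, minus strand: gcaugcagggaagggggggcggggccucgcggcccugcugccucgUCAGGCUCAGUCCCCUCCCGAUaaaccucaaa
In the 85 bases of Mir877, rno-miR-877 takes bases 1 to 20 and miR-877-y bases 63 to 84. The hairpin starts with GU and ends with AG, the letters of an intron's ends, which held for 4 of 419 RefSeq hairpins (0.955%), Mir877, Mir1224, Mir3595 and Mir678. In the RefSeq gene list the Mir877 gene lies within Abcf1, which encodes a translation factor of the ABC ATPase family. Mir484 lies between Nde1 and Marf1 without overlap, and rno-miR-484 takes bases 46 to 67 of its 77 bases, in the 3′ part. Mir320a, the miR-320 gene, lies on chromosome 15 next to Polr3d, which encodes a subunit of RNA polymerase III, and no gene in the list encloses it.

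rno-miR-320-3p was abundant in the circulating exosomes, rno-miR-484 was moderately abundant and rno-miR-877 was near the detection floor. Levels are CPM, the reads of a miRNA per 1000000 listed reads after scaling with edgeR's TMM (trimmed mean of M-values) factors, in libraries of 1168686 to 3781718 listed reads. rno-miR-320-3p had 3277, 3720, 3461, 2838 and 3297 CPM in NXT-Exo 1 to 5 and 3175 CPM in Ctl-Exo 5, and it ranked 40th of the 865 miRNAs with reads. The lowest value was that of NXT-Exo 4, the library with the fewest reads, and Ctl-Exo 5 lay inside the range of NXT-Exo. rno-miR-484 had 848.8, 889.4, 986.4, 884.9 and 919.1 CPM in NXT-Exo 1 to 5 and 835.8 CPM in Ctl-Exo 5, and ranked 70th. Here Ctl-Exo 5 was the lowest of the 6 libraries. rno-miR-877 had 6.668, 6.325, 6.744, 2.345 and 5.738 CPM in NXT-Exo 1 to 5 and 7.078 CPM in Ctl-Exo 5, and ranked 421st. These levels rest on 20, 21, 15, 3 and 22 reads in NXT-Exo and on 13 in the saline library, so that NXT-Exo 4 was at the floor of 3 reads.

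**Figure D1:**
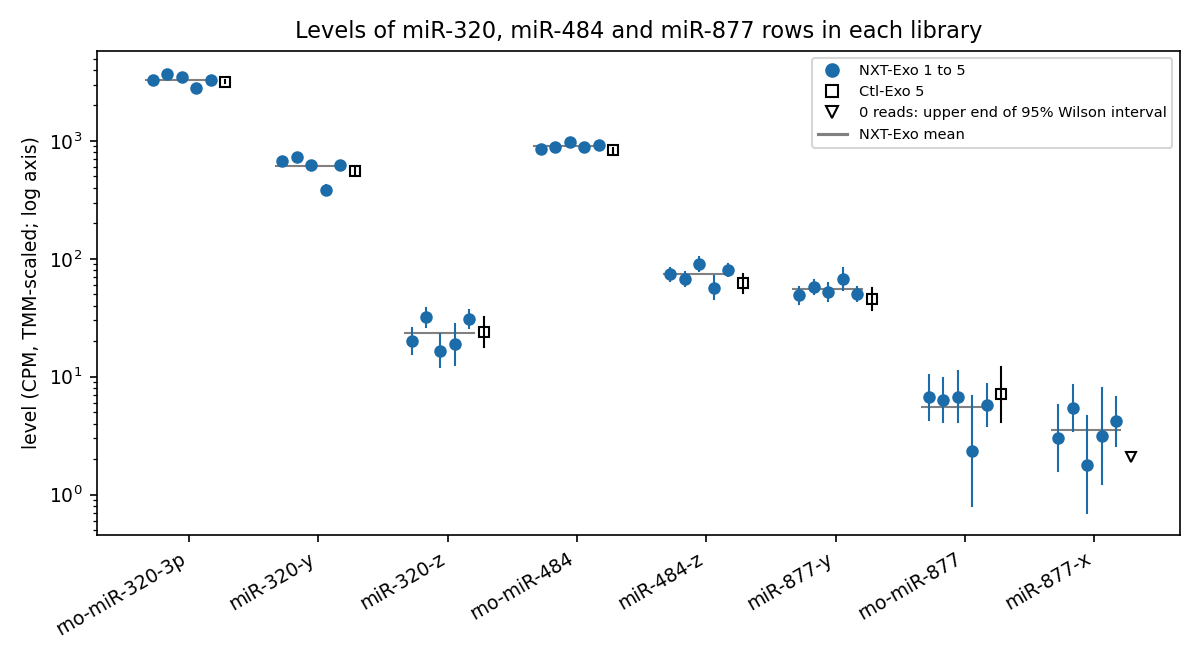
Level of the 3 members and of the 5 further sequences in each library, in CPM on a log axis, with circles for NXT-Exo 1 to 5 in order, squares for Ctl-Exo 5, vertical lines for 95% Wilson intervals (counting error only) and grey lines for the NXT-Exo mean. rno-miR-320-3p stands at 2838 to 3720 CPM and rno-miR-484 at 835.8 to 986.4 CPM, while rno-miR-877 is at 2.345 to 7.078 CPM and its intervals overlap in all libraries, and miR-877-x has 0 reads in Ctl-Exo 5 (triangle at 2.09 CPM).

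The order of the members was the same in all 6 libraries. rno-miR-320-3p exceeded rno-miR-484 by 3.21-fold to 4.18-fold within a library, with a mean log2 ratio of 1.88 ± 0.13 (SD, n = 6). rno-miR-484 exceeded rno-miR-877 by 118-fold to 377-fold, with a mean log2 ratio of 7.35 ± 0.61 (SD, n = 6). For both pairs the exact two-sided sign-flip test over the 6 libraries gave p = 0.03125, also after Benjamini-Hochberg adjustment over the 2 pairs. This is the smallest value that 6 libraries allow. The pairs were neighbours in mean level in these same libraries, and the higher member led in all 6. The p could therefore take only this value, and it treats the libraries as independent. The sequences are 20 to 22 bases long, so no correction for length was made, and differences in how well single miRNAs are captured in a library were not measured. Together the 3 members took 0.408% to 0.445% of the listed reads with the drug and 0.39% with saline, without TMM scaling. On that scale Ctl-Exo 5 was below all NXT-Exo libraries for 131 of 865 miRNAs. In Ctl-Exo 5, rno-miR-320-3p alone took 0.308%, and its CPM, with TMM scaling, lay inside the NXT-Exo range.

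rno-miR-484 varied little between the NXT-Exo libraries. Its SD on the log2(CPM + 1) scale was 0.081 over the 5 NXT-Exo libraries, which is a coefficient of variation of 5.69%. Among 467 miRNAs averaging 10 or more reads per library, 5 had a smaller SD, and among the 99 averaging 1000 or more, 2 did. The SD of rno-miR-320-3p was 0.14 (coefficient of variation 9.7%), with 44 of the 467 and 23 of the 99 below it. The medians of the same SD were 0.32 over the 467 and 0.19 over the 99. For rno-miR-877 the SD was 0.51, with 348 of 467 below it, at a depth where counting error alone is large, since the 95% Wilson interval of NXT-Exo 4 ran from 0.797 to 6.89 CPM.

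**Figure D2:**
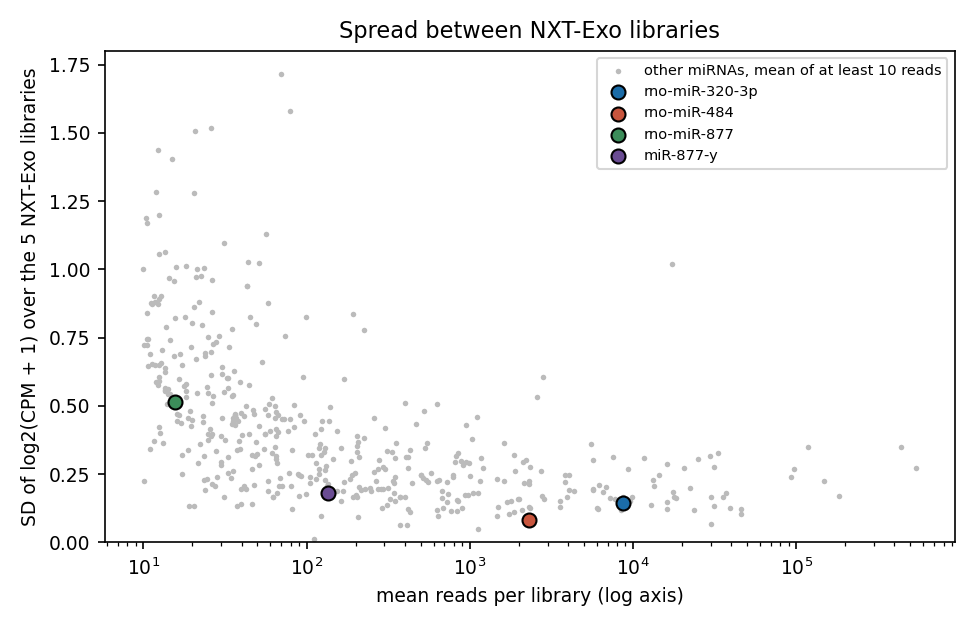
SD of log2(CPM + 1) over the 5 NXT-Exo libraries against mean reads per library on a log axis, for 467 miRNAs averaging 10 or more reads. rno-miR-484, with an SD of 0.081, lies at the lower edge of the points of similar depth, rno-miR-320-3p at 0.14 and rno-miR-877 at 0.51.

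Across libraries, none of the 3 correlations between members passed the test. Over the 6 libraries, rno-miR-320-3p and rno-miR-484 had a Pearson r of 0.316 (exact permutation p = 0.56) and a Spearman rho of 0.657 (exact permutation p = 0.175). Without the 2 libraries farthest from the median of rno-miR-320-3p, r was 0.93 over the other 4. For rno-miR-320-3p and rno-miR-877, r was 0.755 (exact permutation p = 0.126) and rho 0.143 (p = 0.803), and r became -0.164 without the 2 farthest libraries, so the value rests on those libraries. For rno-miR-484 and rno-miR-877, r was 0.0176 (exact permutation p = 0.963), rho was -0.257 (p = 0.658), and r without the 2 farthest was -0.115. The smallest of the 3 p-values of r, adjusted by Benjamini-Hochberg, was 0.378.

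The study compared NXT-Exo with Ctl-Exo to find miRNAs that the drug changes in exosomes. The calls below come from the single saline library used here and are not those of the study. None of the 3 members was 2-fold apart with Ctl-Exo 5 outside the NXT-Exo range, a call that 99 of 865 miRNAs (11.4%) met. Differences are given on the log2(CPM + 1) scale, the level of Ctl-Exo 5 being subtracted from the averaged NXT-Exo level. rno-miR-320-3p was 3319 ± 322 CPM (SD, n = 5) in NXT-Exo against 3175 CPM (95% Wilson interval 3095 to 3258) in the saline library. It differed by 0.06 on the log2 scale, less than its SD of 0.14, and 4 of 5 NXT-Exo libraries were above Ctl-Exo 5, or 5 of 5 with the counts scaled to the listed total or with the deposited TPM values. The difference was 0.02 without NXT-Exo 2 and 0.11 without NXT-Exo 4. rno-miR-484 was 905.7 ± 51.55 CPM (SD, n = 5) against 835.8 CPM (795 to 878.6 CPM), a log2 difference of 0.12 against an SD of 0.081. All 5 NXT-Exo libraries were above Ctl-Exo 5, under all 4 scalings computed, although NXT-Exo 1, at 848.8 CPM, was inside the counting interval of the saline library. Of all 865 miRNAs, 130 (15.0%) had Ctl-Exo 5 below all NXT-Exo libraries. rno-miR-877 was 5.564 ± 1.843 CPM (SD, n = 5) against 7.078 CPM (4.137 to 12.11 CPM). Each NXT-Exo library had a lower level than Ctl-Exo 5, a position found for 132 of 865 miRNAs (15.3%). However, 1 of the 5 was above Ctl-Exo 5 with the listed total or the deposited TPM values as the scale. Inside the counting interval of Ctl-Exo 5 lay 4 of them. The difference was -0.30 on the log2 scale, with an SD of 0.51 between NXT-Exo libraries, and -0.13 without NXT-Exo 4. Whether more vesicles carried a miRNA or each carried more of it cannot be told apart in these bulk libraries.

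In edgeR's quasi-likelihood test, which takes the spread from the 5 NXT-Exo libraries and assumes that Ctl-Exo 5 varies alike, 0 of 865 miRNAs (0%) had an adjusted p below 0.05. At an unadjusted p below 0.05 there were 46 of 865. With DESeq2 there were 0 at an adjusted and 33 of 864 at an unadjusted p below 0.05. A share of about 0.05 is expected below an unadjusted threshold of 0.05 without any difference. The edgeR log2 fold change of rno-miR-320-3p was 0.06 (SE 0.228, adjusted p = 0.95), with a 95% interval of -0.40 to 0.53. That of rno-miR-484 was 0.12 (SE 0.219, adjusted p = 0.886), with an interval of -0.33 to 0.56. These intervals hold only under the assumed spread, since none could be measured for the single saline library. That of rno-miR-877 was -0.31 (SE 0.813, adjusted p = 0.92). Its interval of -1.98 to 1.35 covers both a 2-fold rise and a 2-fold fall, so neither can be excluded.

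**Figure D3:**
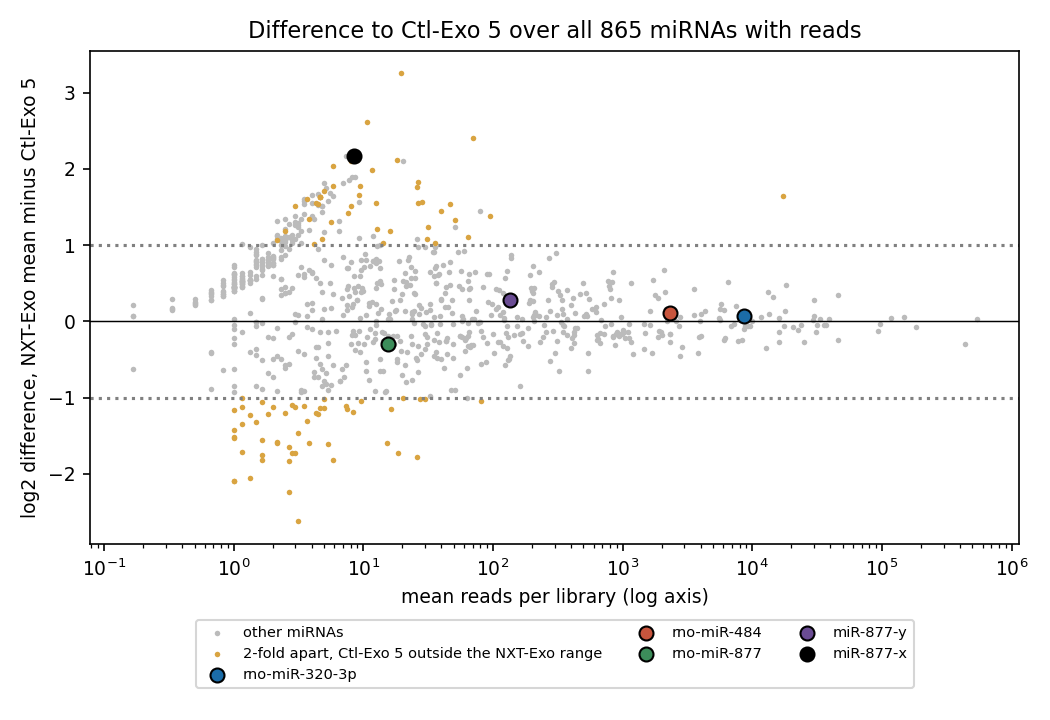
Difference of NXT-Exo, as the mean of 5 libraries, from Ctl-Exo 5 on the log2(CPM + 1) scale against mean reads per library on a log axis for the 865 miRNAs with reads, with dotted lines at a 2-fold difference. The 3 members lie between -0.30 and 0.12, miR-877-y lies at 0.29, and miR-877-x, at 2.17, is among the 99 miRNAs counted as apart.

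The reads of rno-miR-320-3p, rno-miR-484 and rno-miR-877 were divided with the near-identical sequences in different proportions. Of the reads of the 3 miR-320 sequences, miR-320-y held 15.3% ± 2.01 (SD, n = 5) in NXT-Exo and 14.8% in Ctl-Exo 5. In NXT-Exo 4 it was 11.9%, and the 95% Wilson interval of 10.9% to 12.9% lay below the intervals of the other 5 libraries. Its level was 610.2 ± 133.9 CPM (SD, n = 5) in NXT-Exo against 553.8 CPM. miR-320-z held 0.405% to 0.779% in NXT-Exo and 0.638% in Ctl-Exo 5. Of the miR-484 reads, miR-484-z held 7.5% ± 0.947 (SD, n = 5) in NXT-Exo against 6.91% in the saline library. Adding these sequences to the member left the log2 difference at 0.07 for miR-320 and 0.13 for miR-484.

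For miR-877 the division changed the direction. miR-877-x had 9, 18, 4, 4 and 16 reads in NXT-Exo 1 to 5 and none (0 reads) in Ctl-Exo 5. Ctl-Exo 5 was thus below all NXT-Exo libraries, a position found for 130 of 865 miRNAs (15.0%). The 95% Wilson interval of the 0 reads reached 2.09 CPM, and NXT-Exo 3, at 1.798 CPM, was inside it. The mean under the drug, 3.504 ± 1.363 CPM (SD, n = 5), was 2.15-fold the floor of 3 reads in Ctl-Exo 5, or 1.63 CPM. That floor is below the end of the counting interval, so the ratio is not a lower bound. miR-877-x was among the 99 of 865 miRNAs (11.4%) counted as apart, while its adjusted p was 0.815 in edgeR's test (unadjusted 0.0193). Of the 5p reads of miR-877, miR-877-x held 21.1% to 57.1% in NXT-Exo and 0 of 13 in Ctl-Exo 5, a count whose 95% Wilson interval reaches 22.8%. With rno-miR-877 and miR-877-x added, the 5p arm was 9.668, 11.75, 8.542, 5.472 and 9.911 CPM in NXT-Exo 1 to 5 and 7.078 CPM in Ctl-Exo 5, which lay inside that range. The log2 difference of the arm was 0.32, against -0.30 for rno-miR-877 alone. The sum was formed after the values had been seen.

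The 3p arm of miR-877 outnumbered the 5p arm that bears the rat name. miR-877-y had 49.01, 57.53, 52.15, 67.23 and 50.6 CPM in NXT-Exo 1 to 5 and 45.19 CPM in Ctl-Exo 5. Of all reads of the 3 miR-877 sequences it held 85.7% ± 3.94 (SD, n = 5) in NXT-Exo, with 92.5% in NXT-Exo 4 and 83.0% to 85.9% in the others, and 86.5% in Ctl-Exo 5 (95% Wilson interval 78.2% to 91.9%). Over the 6 libraries these were 817 of 962 reads (84.9%). The arm was looked at after its values had been seen, so no test was made. Among 114 rat-named precursors with both arms listed and 10 or more reads on average, the median share of the 3p arm was 33.3%, and 32 had a share above 84.9%. Those shares use rat-named sequences alone, whereas the 84.9% counts miR-877-x with the 5p arm. With rno-miR-877 as the only 5p sequence it was 89.7% (817 of 911 reads), and precursors above that value were not counted. The level of miR-877-y was 55.3 ± 7.396 CPM (SD, n = 5) in NXT-Exo, above Ctl-Exo 5 in 5 of 5 libraries. Ctl-Exo 5 was below all NXT-Exo libraries for 130 of 865 miRNAs (15.0%). NXT-Exo 1, 3 and 5 were inside its counting interval for miR-877-y (36.46 to 56.02 CPM). miR-877-y differed by 0.29 on the log2 scale, more than its SD of 0.18. Its adjusted p was 0.815 in edgeR's test, with a 95% interval of -0.44 to 1.01. NXT-Exo 4, which was lowest for rno-miR-320-3p, miR-320-y and rno-miR-877, was highest for miR-877-y.

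**Figure D4:**
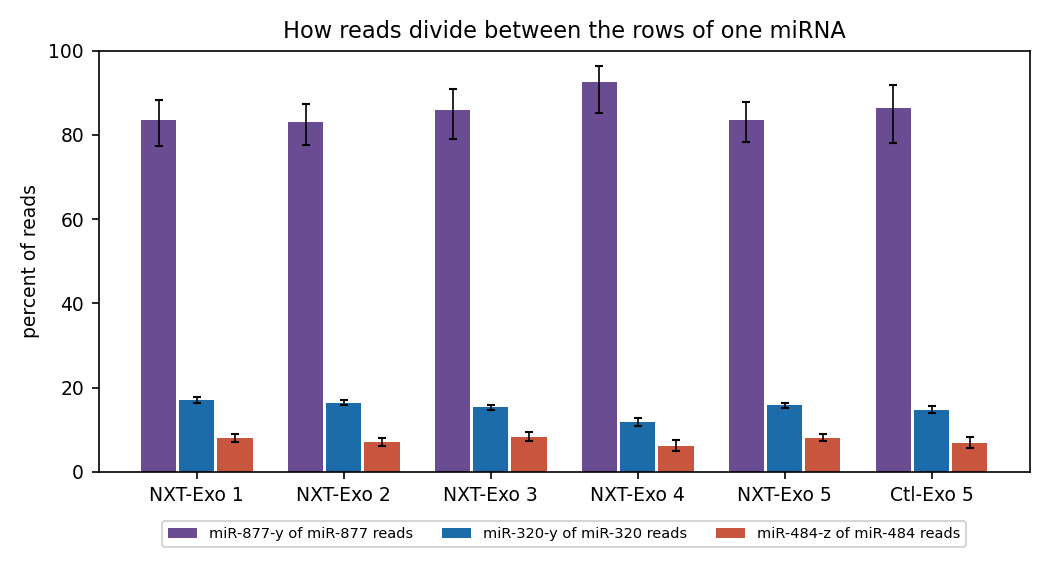
Percent of the reads of 1 miRNA that fell on the sequence named in the legend, by library, with 95% Wilson intervals (counting error only) and the axis from 0 to 100. miR-877-y takes 83.0% to 92.5% of miR-877 reads in each library, miR-320-y 11.9% to 17.0% of miR-320 reads, and miR-484-z 6.06% to 8.35% of miR-484 reads.

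Seed mates of the members were few. The seed of rno-miR-320-3p was shared by miR-320-y, miR-320-z and 1 miRNA predicted by the authors, with 56 reads over the 6 libraries. Those of rno-miR-484 and rno-miR-877 were shared only by miR-484-z and miR-877-x, respectively. Of the miR-320 reads over the 6 libraries, 51984 fell on rno-miR-320-3p, 9776 on miR-320-y and 389 on miR-320-z.

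Other miRNAs that are known or reported to bypass Drosha or DGCR8 (mirtrons, short hairpins, and miRNAs from snoRNA or tRNA) were taken by name. Of 10 miRNA numbers, 8 had reads, in 18 listed sequences, of which 10 averaged 10 or more reads. None of the 18 was 2-fold apart with Ctl-Exo 5 outside the NXT-Exo range, against 11.4% of all miRNAs. Ctl-Exo 5 was below all NXT-Exo libraries in 2 of the 18, beside 15.0% of all miRNAs, and above all in 3 of the 18, beside 132 of 865 (15.3%), counts near those shares. The median log2 difference of the 10 was 0.247, from -0.50 to 0.97, beside a median of 0.034 over the 467 miRNAs of that depth. miR-1983-z, whose number is that of a tRNA-derived miRNA, was the most abundant, at 869.9 ± 131.4 CPM (SD, n = 5) with the drug and 973 CPM with saline, a level close to that of rno-miR-484. The snoRNA-derived rno-miR-664-3p was 80.33 ± 9.928 CPM (SD, n = 5) against 66.43 CPM. The mirtrons miR-702 and miR-1224 were low, as was rno-miR-877. rno-miR-702-3p, also the 3p arm of its hairpin, was 13.51 ± 5.802 CPM (SD, n = 5) against 11.43 CPM, and rno-miR-1224 had 32 reads over the 6 libraries and 0 in Ctl-Exo 5.

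The miRNAs whose levels followed a member most closely are given as a description, over 6 libraries and 466 candidates with shared library scaling. For rno-miR-320-3p they were miR-351-y (r = 0.986, at 0 to 7.83 CPM), rno-miR-25-5p (r = 0.96) and its own longer form miR-320-y (r = 0.924). For rno-miR-484 they were miR-26-z (r = 0.957), miR-142-x (r = 0.949) and rno-miR-21-5p (r = 0.946), the last at 5696 CPM in NXT-Exo on average. For rno-miR-877 they were miR-146-x (r = 0.976), rno-miR-760-3p (r = 0.971) and miR-191-x (r = 0.962), all 3 of which were, like rno-miR-877, lowest in NXT-Exo 4.

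Every listed blood cell, liver and endothelial miRNA had reads. The summed level of 4 red blood cell miRNAs (miR-486, miR-451-5p and both arms of miR-144) was 157700 to 260300 CPM with the drug, and the saline library at 210400 CPM lay inside that range. That of 4 white blood cell and platelet miRNAs (miR-223-3p, miR-150-5p and both arms of miR-142) was 20710 to 24460 CPM against 25680 CPM, above all NXT-Exo libraries. Most of this sum was miR-142-5p, at 17700 CPM in NXT-Exo on average. The log2 differences of the 4 ran from -0.42 (miR-223-3p) to -0.06 (miR-150-5p). Both arms of miR-122, of liver, summed to 3308 to 17430 CPM against 2203 CPM, below all NXT-Exo libraries. The highest value was that of NXT-Exo 1, and the next was 6452 CPM in NXT-Exo 5. Most of the liver sum was miR-122-5p, at 6838 CPM in NXT-Exo on average. For miR-122-3p, at 19.3 CPM, Ctl-Exo 5 lay inside the NXT-Exo range. Of single miRNAs, 15.3% had Ctl-Exo 5 above and 15.0% below all NXT-Exo libraries. Both arms of miR-126a, of endothelium, summed to 1154 to 1498 CPM against 1252 CPM. Their part in the position of Ctl-Exo 5 for rno-miR-484 and miR-877-y was not tested.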

How the data were processed

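The authors sequenced small RNA libraries (TruSeq) and removed adapter dimers, low-complexity reads, other RNA classes and repeats with ACGT101-miR. They deposited raw counts per miRNA sequence and library, and TPM values in which counts are divided by a larger library total and 0 reads are 0.01. Rnor_6.0 is named in the submitters' processing notes, and the aligner is not given in the sources used here. A further 8 columns, headed as the counts and TPM of Ctl-Exo 1 to 4, match no sample label given and were not used here, so the saline arm was 1 library.

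Counts were scaled with edgeR 4.0.16 (TMM) in R 4.3.3 over the 865 miRNAs with reads. NXT-Exo was compared with Ctl-Exo 5 by fold and range (at least 2 or at most 0.5, Ctl-Exo 5 outside the NXT-Exo range), by edgeR's quasi-likelihood test and by DESeq2 1.42.0, with Benjamini-Hochberg adjustment over all miRNAs. SEs were taken from the fold change and the F statistic. On the CPM scale 1 read was worth 0.261 to 0.782 in NXT-Exo and 0.544 in Ctl-Exo 5. Members were compared within libraries, and shares have 95% Wilson intervals, which cover counting error only, as does the floor of 3 reads. All 15 pairs of libraries differed by more than counting noise (chi-square per degree of freedom of 28.5 or more). Python 3.11.15, scipy 1.17.1, pandas 2.3.3 and matplotlib 3.10.9 were used, and the fits were tested on simulated data.

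The sequences named are the members, all sequences with their numbers or shared seeds, the list of other Drosha-independent miRNAs, and the 3 closest patterns per member (Pearson r of log2(CPM + 1)). The sums over near-identical sequences and the arms of miR-877 were added after the values were seen. Members and lists were chosen with earlier results of these data known.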

Additional observations from a re-analysis of the deposited data

Results flagged for a closer look

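In 2 of 24 sets of 5 NXT-Exo values, 1 library was set apart from the rest by Dixon's gap test, which about 1 in 20 sets would be by chance. For rno-miR-877, NXT-Exo 4 at 2.345 CPM (3 reads) was below the next library at 5.738 CPM, and this gap was 0.771 of the whole range where 0.71 is critical. In the share of miR-877-y against rno-miR-877 alone, NXT-Exo 4 at 96.6% was above the other NXT-Exo libraries at 88.0% to 90.1%, and the gap was 0.756 of the range. Both rest on the same 3 reads in the library with the fewest reads. With miR-877-x counted to the 5p arm the gap of the share was 0.695, under the critical value. The part of depth in either was not tested.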

How the results depend on the processing

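For the 3 members, 38 of 39 log2 differences under the alternatives kept their sign and moved by under 1 SD between NXT-Exo libraries. Among these, rno-miR-320-3p (0.06) ran from 0.02 without NXT-Exo 2 to 0.11 without NXT-Exo 4, and rno-miR-877 (-0.30) was -0.13 without NXT-Exo 4 and with a pseudocount of 10, and -0.14 with the median of NXT-Exo. The exception was rno-miR-877, at 0.32 with miR-877-x added, a sum that adds reads to NXT-Exo alone because Ctl-Exo 5 had 0. That sum, the deposited TPM values and the shares of miR-877 were chosen after seeing the data. Adjusted p ran from 0.845 to 0.989 for the members in edgeR and DESeq2. The number of miRNAs counted as apart (99) was 4 with a pseudocount of 10 (miR-183-x, miR-451-x, rno-miR-122-5p and rno-miR-202-5p, named after their values were seen), 30 when only miRNAs averaging 10 or more reads were kept and 166 when the range was not used. edgeR's count of 0 was 0 to 1 without single NXT-Exo libraries, the 1 being rno-miR-122-5p without NXT-Exo replicate 2. The log2 ratios between members, 1.88 and 7.35, were 1.87 and 7.44 in the 5 NXT-Exo libraries, and 1.84 to 1.92 and 7.11 to 7.42 without single libraries. With 5 libraries the exact test allows no p below 0.0625. The share of miR-877-y was 90.6% with rno-miR-877 as the only 5p sequence. The planned share of the 3p arm of miR-320 was not run, since the 5p arm was not analysed here. No paired analysis was possible because NXT-Exo and Ctl-Exo have just 1 replicate number in common among the labelled samples, the columns headed Ctl-Exo 1 to 4 not being used.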
